A study of Mus musculus with 8 samples.

Results

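The genomic bins that changed compartment between 10 h of activation and imminent division were described in mouse B cells. Contacts were mapped with in situ Hi-C: crosslinked DNA is cut with MboI and religated, and a sequenced read pair joins 2 loci that lay close together in a nucleus. Splenic naive B cells of C57BL/6 male mice, 6 to 12 weeks of age, were isolated by negative selection, labelled with the division dye CTV and cultured with 25 µg/ml of lipopolysaccharide (LPS) from Salmonella typhosa. The methods give the background of the animals in all experiments as C57BL/6 Pep3b. There were 4 groups of 2 libraries each, from biological replicates. Undivided CD69+ cells were sorted at 3 h, at 10 h and at 33 h (imminent division). A further group at 33 h (pre-S) came from C57BL/6 FUCCI transgenic mice, whose cell cycle reporters were used to sort mAG- mKO2-high cells before DNA synthesis. Mouse line and gate therefore differ together with the pre-S group, and the 3 h libraries differ from it in time as well. No expression was measured here. The second imminent division library had a higher share of reads on X and a lower one on Y than the other 7, which goes against the male sex given for all mice; its values and the choice of bins without it are given at the end.

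For each library the contacts within each autosome were summed in bins of 100 kb, balanced, divided by the mean contact at the same distance, and turned into a correlation matrix. Its first principal component, called the component below, was scaled to a mean square of 1 per chromosome and given the sign that places more protein-coding gene starts in positive bins. Positive bins are called A and negative bins B. Of 23789 autosomal bins, 252 (1.06%) were A in both 10 h libraries and B in both imminent division libraries, and are called A to B bins. A further 112 bins (0.471%) made the opposite change and are called B to A bins. In comparison, 10715 bins were A and 11991 bins were B in all 8 libraries. The bins were selected on the component of the 10 h and imminent division libraries, so every difference between those groups is given as a description with no test, and tests are kept to 3 h and pre-S, whose libraries had no part in the choice. Neighbouring bins share contacts and all bins share the same libraries, so bins are not replicates.

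The A compartment is known as the gene-rich, transcribed part of the nucleus, and the B compartment as gene-poor chromatin that tends to lie at the nuclear lamina and to replicate late. Contacts form preferentially between bins of the same compartment, on the same chromosome and between chromosomes. A component near 0 belongs to neither compartment strongly. A shift in every cell and a shift in some of the cells cannot be told apart in bulk libraries. The cell label was checked through the compartment of marker genes: all 12 B cell markers, Ms4a1 and Cd79a among them, started in bins that were A in all 8 libraries, but so did all 10 myeloid and all 6 erythroid markers, so this check does not separate blood cell types.

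Promoters of 5 genes that start in the bins described below are shown, to show the range of CpG content at single gene starts in these bins. Each is the stretch just before the gene's start in RefSeq (GRCm38.p6), 5′ to 3′ on the gene's strand, with every CG in capitals. They lie at chr13:14612992-14613239 on the plus strand for Psma2, at chr19:31082591-31082836 on the plus strand for Cstf2t, at chr9:89199023-89199208 on the plus strand for Bcl2a1b, at chr13:92131829-92132078 on the minus strand for Rasgrf2 and at chr6:84593909-84594060 on the minus strand for Cyp26b1. The first 3 genes start in A to B bins and the last 2 in B to A bins.
Psma2: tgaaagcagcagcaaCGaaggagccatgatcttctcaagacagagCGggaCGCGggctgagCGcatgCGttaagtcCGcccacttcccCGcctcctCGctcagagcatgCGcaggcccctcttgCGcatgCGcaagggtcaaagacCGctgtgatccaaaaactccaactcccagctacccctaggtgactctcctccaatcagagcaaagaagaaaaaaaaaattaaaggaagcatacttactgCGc
Cstf2t: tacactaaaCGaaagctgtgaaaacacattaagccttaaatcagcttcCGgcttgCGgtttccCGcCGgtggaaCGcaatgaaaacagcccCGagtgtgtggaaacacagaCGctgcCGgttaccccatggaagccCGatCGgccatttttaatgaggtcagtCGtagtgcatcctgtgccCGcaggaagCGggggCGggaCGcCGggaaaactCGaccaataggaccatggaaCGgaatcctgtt
Bcl2a1b: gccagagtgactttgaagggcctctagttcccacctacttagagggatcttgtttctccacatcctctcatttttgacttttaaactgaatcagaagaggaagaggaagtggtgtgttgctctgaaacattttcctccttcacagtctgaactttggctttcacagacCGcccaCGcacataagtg
Rasgrf2: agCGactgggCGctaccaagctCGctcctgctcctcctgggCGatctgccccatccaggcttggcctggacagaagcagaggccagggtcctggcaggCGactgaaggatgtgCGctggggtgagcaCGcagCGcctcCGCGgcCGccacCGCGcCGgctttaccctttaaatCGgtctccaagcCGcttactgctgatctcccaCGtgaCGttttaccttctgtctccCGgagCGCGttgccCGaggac
Cyp26b1: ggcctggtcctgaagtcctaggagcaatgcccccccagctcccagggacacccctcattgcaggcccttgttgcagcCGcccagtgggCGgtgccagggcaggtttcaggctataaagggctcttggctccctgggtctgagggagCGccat
The letters CG, which read the same on both strands, occur 14 times in the 248 bases of Psma2, 19 times in the 246 bases of Cstf2t, 2 times in the 186 bases of Bcl2a1b, 22 times in the 250 bases of Rasgrf2 and 3 times in the 152 bases of Cyp26b1. The printed stretches end before both the RefSeq and the GENCODE start and so differ in length. Over the first 250 bases of the 31396 autosomal promoters of the same table, 92.4% hold at least 1 CG, with a median of 6, to which the counts of the shorter stretches cannot be compared directly. Over the 13379 of 20472 protein-coding genes that could be matched to the table the median was 12. Only 61.3% of the genes that start in A to B bins and 57.7% of those in B to A bins could be matched to the table, too few for a comparison of the directions at promoters.

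The A to B bins were weakly A before the change and weakly B after it. Their median component was 0.112 and 0.174 in the 3 h libraries, 0.106 and 0.121 in the 10 h libraries, -0.0829 and -0.0995 in the imminent division libraries, and 0.00320 and -0.00623 in the pre-S libraries. For scale, the median over the bins that were A in all 8 libraries lay between 1.13 and 1.15 and over those B in all 8 between -1.04 and -1.01. The B to A bins mirrored this. Their median was -0.174 and -0.119 at 3 h, -0.101 and -0.0958 at 10 h, 0.154 and 0.117 in imminent division libraries, and -0.0168 and -0.000428 at pre-S. In both directions the pre-S medians lay close to 0.

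**Figure D1:**
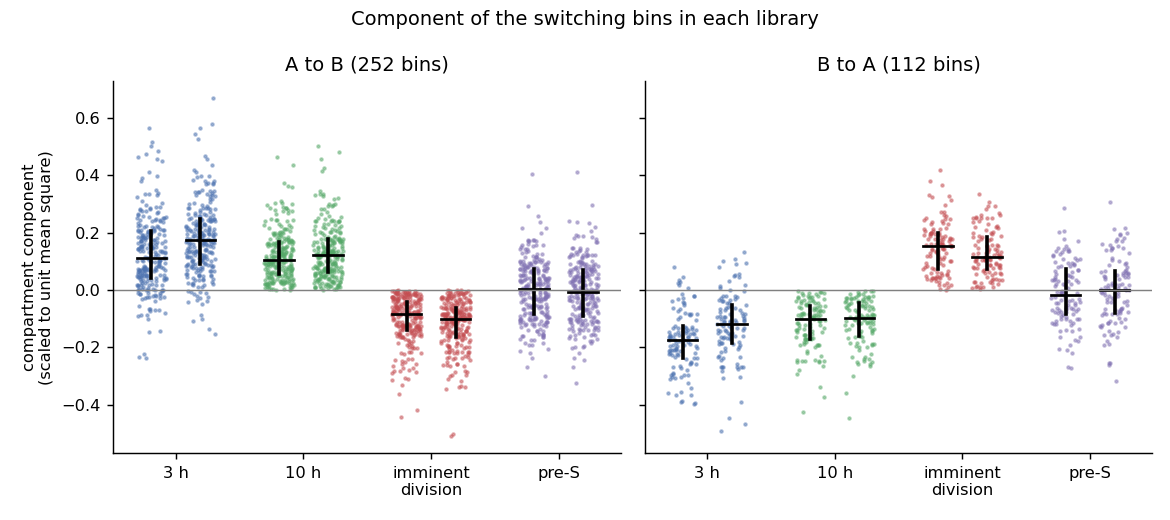
Component of each A to B bin (left, 252 bins) and B to A bin (right, 112 bins) in the 8 libraries, with 1 column of points per library. Horizontal black lines are medians and vertical black lines span the quartiles over bins; the 10 h and imminent division columns lie on opposite sides of 0 because this chose the bins, while the medians of the pre-S columns lie between -0.0168 and 0.00320.

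Bins just inside and just outside the rule were told apart by a single value near 0. The closest A to B bin, chr12:56400030-56500091, had a component of 0.0157 and 0.0346 at 10 h and of -0.0451 and -0.000500 at imminent division. The closest bin outside, chr11:29500304-29600183, had 0.251 and 0.232 at 10 h but 0.000207 and -0.0312 at imminent division. Among B to A bins the closest inside was chr18:10999876-11100100, at -0.0117 and -0.00295, then 0.000636 and 0.116, and the closest outside was chr1:61600000-61700397, at -0.110 and 0.000121, then 0.0253 and 0.0534. A further 227 bins missed the A to B rule and 90 the B to A rule in 1 library of 4. With a component of at least 0.1 on both sides in all 4 libraries, 31 A to B and 16 B to A bins remained. The choice also depends on where 0 lies: after centring each chromosome on its median component there were 154 bins in each direction, of which 42 and 36 were among the 252 and 112. Such centring places equally many bins on either side of 0 in every library. This favours similar counts in both directions, so their balance is no result.

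Most of the chosen bins had the 10 h sign already at 3 h, which is no trait of these bins. Of all 23789 bins, 10715 were A and 11991 were B in all 8 libraries, 3 h and 10 h included. Of the A to B bins, 212 (84.1%) were A in both 3 h libraries and 13 were B in both. Of the B to A bins, 96 (85.7%) were B in both 3 h libraries and 6 were A in both. At pre-S the bins were divided. The A to B bins were B in both pre-S libraries in 104 cases, A in both in 100 and of mixed sign in 48. The B to A bins were A in both in 44, B in both in 51 and mixed in 17.

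The same bins also differed between 3 h and pre-S, which the choice did not use. The component was lower at pre-S in 152 of 252 A to B bins (60.3%) and higher in 8, by limma over all bins at a false discovery rate (FDR) of 5%. Across all bins 12.8% were lower and 10.9% were higher. Of the B to A bins, 61 of 112 (54.5%) were higher at pre-S and 5 were lower. The median difference, pre-S minus 3 h, was -0.158 in A to B bins, 0.153 in B to A bins and 0.00526 over all bins. The replicates of a group differed by a median of 0.0596 at 3 h and 0.0385 at pre-S in A to B bins, and by 0.0599 and 0.0368 in B to A bins. All libraries of one group lay beyond all of the other, in the direction of the rule, in 191 A to B bins (75.8%; 28.7% of all bins were lower without overlap) and 84 B to A bins (75%; 32.1% of all bins were higher without overlap).

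**Figure D2:**
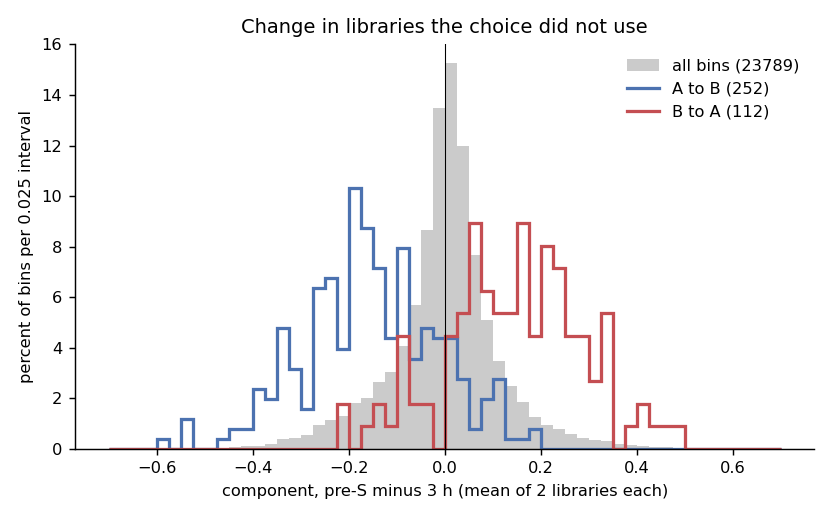
Difference in component between pre-S and 3 h (mean of 2 libraries each) on the horizontal axis, and on the vertical axis the percent of bins in intervals of 0.025, for all 23789 bins (grey), 252 A to B bins (blue) and 112 B to A bins (red). The A to B bins centre at -0.158 and the B to A bins at 0.153, on either side of all bins at 0.00526; bins beyond the plotted range are left out of the grey shape.

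A full change of sign between 3 h and pre-S was seen in 82 A to B bins (32.5%), which were A in both 3 h and B in both pre-S libraries, as were 0.954% of all bins. The opposite change was seen in 42 B to A bins (37.5%), against 0.610% of all bins. The chosen bins lay near 0, whereas 10715 of the 23789 bins were A and 11991 were B in all 8 libraries. A bin near 0 changes sign more easily, so the shares of all bins are no matched reference. The share among other bins near 0 was not counted. Most of the bins lay at a border between compartments. At 10 h 215 A to B bins (85.3%) and 90 B to A bins (80.4%) lay next to a bin of the other sign, against 16.3% of all bins. These borders were drawn from the 10 h component, which also chose the bins. A rule that takes bins near 0 favours such places, so these shares are a description. Among the 3581 other bins at such a border, 37.1% were lower at pre-S than at 3 h and 8.85% were higher. The share of A to B bins called lower was thus larger than at other borders, and so was the share of B to A bins called higher, though neither difference was tested.

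Bins beside the chosen ones were compared too. Bins 100 kb away from an A to B bin that were not chosen themselves had a median difference between pre-S and 3 h of -0.0782 (465 bins), and 39.4% of them were lower, close to the 37.1% of other border bins. At 500 kb the median was -0.0175 (478 bins), with 16.1% lower, against 12.8% of all bins. Beside B to A bins the median was 0.0553 at 100 kb (155 bins), where 38.7% were higher, against 8.85% of other border bins. It was 0.00953 at 400 kb (204 bins) and 0.0191 at 500 kb (206 bins), where 20.9% were higher, against 10.9% of all bins. The medians at 500 kb were smaller than at 100 kb in both directions, without a steady fall beside B to A bins.

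Adjacency differed between the directions. Of the A to B bins 219 (86.9%) stood alone, and a single run reached 3 bins. Of the B to A bins 61 (54.5%) stood alone, and 7 runs held 3 to 6 bins. The A to B run, chr10:38000040-38299941, holds no protein-coding gene. Its mean component was 0.365 and 0.454 at 3 h, 0.245 and 0.319 at 10 h, -0.319 and -0.397 in imminent division libraries, and -0.118 and -0.176 at pre-S. All 3 bins were lower at pre-S than at 3 h, and the middle bin, chr10:38100033-38199780, fell by 0.583 (SE 0.0436, limma adjusted p = 0.000145). The sign of the run's mean separates 3 h and 10 h from both 33 h groups, though the first bin, at 0.103 and 0.0357, was still A at pre-S.

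The longest B to A run, chr6:84199982-84800077, covers 6 bins at the end of Dysf, which encodes the membrane repair protein dysferlin, the start of Cyp26b1, a retinoic acid degrading enzyme whose promoter is shown above, and part of Exoc6b, an exocyst subunit. Its mean component was -0.209 and -0.104 at 3 h, -0.0876 and -0.0642 at 10 h, 0.193 and 0.125 in imminent division libraries and -0.0261 and -0.0109 at pre-S. The bin with the Cyp26b1 start was higher at pre-S than at 3 h by 0.245 (SE 0.0431, limma adjusted p = 0.00406), as were 4 of the 6 bins in all. The run on chr7:144000561-144400583, inside Shank2, a scaffold of the postsynaptic density, had a mean of -0.103 in each 10 h library, of 0.0966 and 0.131 in imminent division libraries and of -0.0842 and -0.0493 at pre-S, with 2 of 4 bins higher at pre-S than at 3 h. The run inside Kif26b (chr1:178599630-178900168) stayed B at pre-S, at -0.141 and -0.177, and 0 of its 3 bins passed the limma test between 3 h and pre-S, also at an unadjusted p under 0.05.

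The 4 other runs of 3 bins were higher at pre-S than at 3 h in every bin. These were chr6:143400271-143699841, with no gene, chr9:42600174-42899076 in Grik4, a kainate receptor subunit, chr10:61799819-62100020 at Col13a1, a transmembrane collagen, and chr13:91900419-92200414 in Rasgrf2, an exchange factor for Ras. The Grik4 run reached the imminent division level at pre-S: its mean was -0.190 and -0.0673 at 3 h, -0.0568 and -0.0767 at 10 h, 0.215 and 0.146 in imminent division libraries, and 0.151 and 0.205 at pre-S. The Rasgrf2 run did not. Its mean was -0.301 and -0.338 at 3 h, -0.307 and -0.284 at 10 h, 0.264 and 0.211 in imminent division libraries, and -0.0493 and -0.00540 at pre-S. The B to A runs thus differ in how far the pre-S libraries lie from 10 h.

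**Figure D3:**
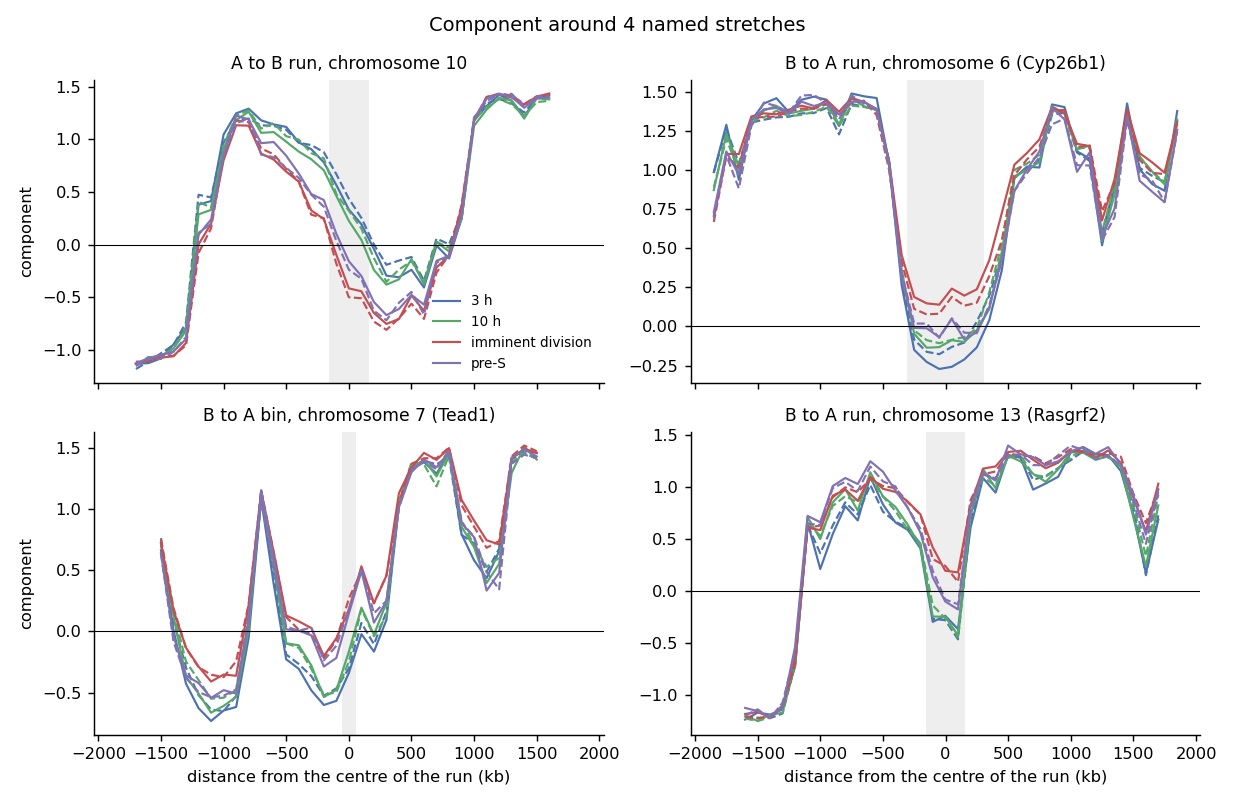
Component (vertical axis) against distance in kb from the centre of 4 stretches (horizontal axis), with 1 line per library, solid for replicate 1 and dashed for replicate 2, coloured by group; the grey band marks the named stretch, and further chosen bins lie outside it in the chromosome 10 and Tead1 windows. On chromosome 10 both 33 h groups run below 3 h and 10 h over more than the 3 chosen bins; around Cyp26b1, Tead1 and Rasgrf2 the imminent division lines lie above those of 3 h and 10 h inside the band.

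Single bins with the largest changes between 10 h and imminent division were named next. Among A to B bins, chr19:31000568-31099867 lies in Prkg1, a cGMP-dependent kinase, and holds Cstf2t, an intronless copy of a polyadenylation factor gene. It was at 0.459 and 0.418 at 3 h, 0.436 and 0.414 at 10 h, -0.0827 and -0.0870 in imminent division libraries, and 0.0915 and -0.0115 at pre-S. The pre-S libraries were lower than 3 h (difference -0.398, SE 0.0403, limma adjusted p = 0.000404).

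Other A to B bins named by this rule were chr13:14600056-14699909, with Mrpl32, a mitochondrial ribosomal protein, and Psma2, a proteasome subunit; chr13:28199998-28299628, with Gm11361; and chr9:20300100-20399841, with Olfr18 and Zfp560. All 3 were lower at pre-S than at 3 h. The bin of Psma2 went from 0.277 and 0.332 at 10 h to -0.0984 and -0.241 in imminent division libraries, and was lower at pre-S than at 3 h by 0.297 (SE 0.0353, limma adjusted p = 0.000708).

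Among B to A bins the largest change between 10 h and imminent division was at chr14:100200138-100299989, which holds the start of Klf12, a zinc finger repressor. Its component was -0.355 and -0.492 at 3 h, -0.337 and -0.300 at 10 h, 0.380 and 0.262 in imminent division libraries, and -0.118 and -0.110 at pre-S. It was B in all libraries but those of imminent division, and at pre-S it was higher than at 3 h by 0.310 (SE 0.0448, limma adjusted p = 0.00161). The other bins named for this change were the 3 of the Rasgrf2 run, chr3:105300167-105400425 with no gene, a bin in Tead1 on chromosome 7, and bins of Sncaip and Zbtb7c on chromosome 18. All were higher at pre-S than at 3 h.

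The Tead1 bin, chr7:112700012-112799635, had the smallest p of all B to A bins between 3 h and pre-S. It lies within Tead1, a transcription factor of the Hippo pathway. Its component was -0.340 and -0.303 at 3 h, -0.167 and -0.247 at 10 h, 0.177 and 0.268 in imminent division libraries, and 0.145 and 0.181 at pre-S. Both 33 h groups were A and did not overlap with 3 h or 10 h, and pre-S was higher than 3 h by 0.485 (SE 0.0327, limma adjusted p = 9.3e-05). The bins of Myo18b (chr5:112699855-112799564) and of Hspa12a and Eno4 (chr19:58899937-59000102) followed the same pattern, with differences of 0.419 and 0.471. A second Myo18b bin, bins of Ptchd3 and Grik4 and a bin of chromosome 6 with no gene complete the 8 with the smallest p. Myo18b encodes an unconventional myosin, Hspa12a a member of the Hsp70 family and Eno4 an enolase.

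On the A to B side the smallest p values after the chromosome 10 run were at chr12:55899868-55999344, with no gene, at chr16:65000661-65100641 overlapping Htr1f, a serotonin receptor, and at bins on chromosomes 4 and 11 with no gene. The bin chr9:89099925-89200269 holds the start of Bcl2a1b, of the A1 family of survival factors that is used in lymphocytes, and was among the 8 smallest p values as well. Its component was 0.213 and 0.221 at 3 h, 0.0568 and 0.0180 at 10 h, -0.203 and -0.223 in imminent division libraries, and -0.193 and -0.268 at pre-S. It was lower at pre-S than at 3 h by 0.448 (SE 0.0354, limma adjusted p = 0.000171). Bcl2a1b has close copies nearby, and reads from such copies can be hard to place, so this bin is uncertain, as can be other bins of clustered gene families. Only the start of the gene lies in the bin, which ends at 89200269, while the gene runs on to 89207827.

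A few bins went the other way between 3 h and pre-S. The 8 A to B bins that were higher at pre-S include those of Vrk2, Hmgcll1 and Cds1, and the 5 B to A bins that were lower include those of Kcnf1 and Bend7; these names were chosen after their values were seen. In the Hmgcll1 bin the mean component was 0.0789 at 3 h, 0.221 at 10 h, -0.214 in imminent division libraries and 0.239 at pre-S, so that only imminent division was B.

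Genes that start in the chosen bins were counted next. The A to B bins hold the starts of 222 protein-coding genes and the B to A bins of 52, of 20472 placed in bins. None of the listed B cell transcription factors (16 placed), plasma cell and secretion genes (13), activation and costimulation genes (18), DNA replication genes (18), mitosis genes (17) or cytokines and chemokines (21) started in a chosen bin, against 1.08% of all genes in A to B bins and 0.254% in B to A bins, so a count of 0 among lists this short is near that share. All 18 activation and costimulation genes, such as Cd69 and Cd86, and all 17 mitosis genes lay in bins that were A in all 8 libraries, as did 76.8% of all genes. Gata3, a transcription factor of T cells, started in an A to B bin (chr2:9800350-9900081; chosen after its values were seen), at 0.224 and 0.264 at 3 h, 0.152 and 0.10 at 10 h, -0.134 and -0.102 in imminent division libraries, and 0.0175 and 0.0747 at pre-S.

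Clustered gene families made up part of the A to B starts. Olfactory receptors gave 21 starts in 8 A to B bins (1.86% of 1127 genes) and 5 in 1 B to A bin, vomeronasal receptors 8 in 4 A to B bins (2.88% of 278), and zinc finger genes of the Zfp series 10 in 7 A to B bins (2.64% of 379). Over all genes 1.08% started in A to B bins and 0.254% in B to A bins. Of these A to B bins, 7 of 8 with olfactory receptors, 3 of 4 with vomeronasal receptors and 4 of 7 with zinc finger genes were lower at pre-S than at 3 h, against 60.3% of all A to B bins. Potassium channels gave 3 of 92 starts in 3 B to A bins, of which 2 were higher at pre-S than at 3 h, and 1 start in an A to B bin. Keratins (113 genes), protocadherins (67), histones (67) and serpins (60) gave none in either direction. Genes of a cluster share a bin, so their starts are not separate observations.

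In sequence the A to B bins resembled the average and the B to A bins did not. The median GC content was 41.2% in A to B bins, 44.4% in B to A bins and 41.5% over all bins. CpG dinucleotides were at a median of 8.03, 9.62 and 7.81 per kb, and soft-masked repeats covered 33.7%, 25.4% and 31.5%. For comparison, bins A in all 8 libraries had a median GC content of 44.2% and bins B in all 8 of 39.1%. The B to A bins thus had the GC content of stable A bins, yet 63.4% of them held no gene start, against 34.2% of stable A bins, 48.4% of A to B bins and 58.3% of all bins.

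The directions also differed in place along the chromosomes. In the last 25% of a chromosome's length lay 56 B to A bins (50%) and 45 A to B bins (17.9%), against 25.7% of all bins. The share of bins that were A to B was highest on chromosome 17 (1.63%), chromosome 10 (1.58%) and chromosome 6 (1.57%). The B to A share was highest on chromosome 18 (1.37%), where A to B bins made up 0.457%, and above 0.9% on chromosomes 9 (0.988%) and 7 (0.956%). Chromosomes 4, 8, 14 and 15 held a single B to A bin each. The component is set chromosome by chromosome, so a chromosome's counts also carry the position of its 0.

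**Figure D4:**
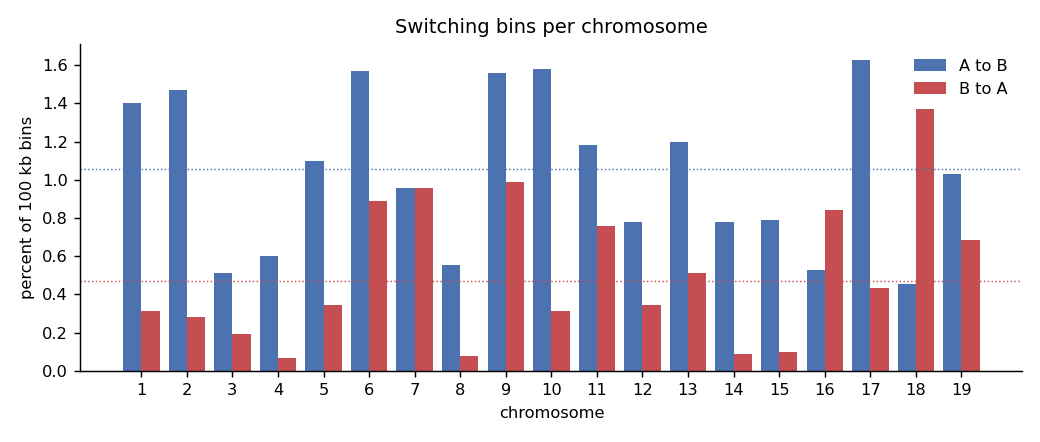
Percent of the 100 kb bins of each autosome (horizontal axis) that were A to B (blue bars) or B to A (red bars); dotted lines are the percent over all autosomes, 1.06% and 0.471%. Chromosomes 16 and 18 hold more B to A than A to B bins, chromosome 7 holds 13 of each, and every other chromosome holds more A to B bins.

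Contacts between chromosomes, which do not enter the component, were examined next. For each bin the A share is the percent of its read pairs with stable A bins of other autosomes, out of those with stable A or stable B bins. In A to B bins the median A share was 57.9% and 56.9% at 3 h, 55.6% and 55.8% at 10 h, 51.6% and 53.2% in imminent division libraries, and 50.1% and 50.6% at pre-S. In B to A bins it was 51.3% and 49.6% at 3 h, 50.5% and 50.7% at 10 h, 57.3% and 58.5% in imminent division libraries, and 51.4% and 52.7% at pre-S. Over all bins the median was 51.3% and 50.1% at 3 h and 46.4% and 47.6% at pre-S. From 10 h to imminent division the share was lower in 234 of 252 A to B bins, without overlap in 200, and higher in 111 of 112 B to A bins, without overlap in 109. Over all bins 31.9% were lower and 46.7% higher without overlap, and these counts come from the libraries of the rule and are a description.

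**Figure D5:**
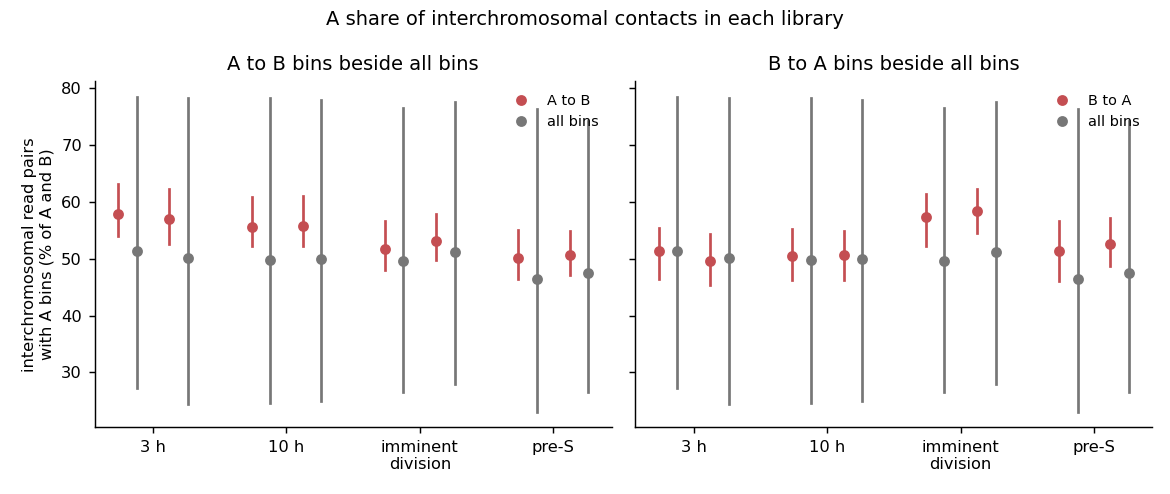
A share of interchromosomal contacts (vertical axis, percent of read pairs with stable A or stable B bins) by library, for A to B bins (left) and B to A bins (right) in red and for all bins in grey; points are medians over bins and lines span the quartiles. The A to B medians are 57.9% and 56.9% at 3 h and 50.1% and 50.6% at pre-S, while those of all bins are 51.3% and 50.1% at 3 h and 46.4% and 47.6% at pre-S; the B to A medians are highest, at 57.3% and 58.5%, in the imminent division libraries.

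To test pre-S against 3 h, the counts with stable A and with stable B bins were each scaled by their own library total. The test, called the A share test, is thus of the ratio of the scaled counts. It is not of the percent above, whose median over all bins was lower at pre-S. The scaled ratio was higher in 60 of 112 B to A bins and lower in none (edgeR quasi-likelihood test, FDR of 5%). Over all bins 14.9% were higher. At this scaling none was lower at an unadjusted p under 0.05 either (edgeR), while 8 B to A bins were with a single library size for both classes. With limma and DESeq2 0 were called lower, but both used the same scaling per class and so are no check on it. Of the A to B bins 14 were lower and 4 higher, against 3.03% of all bins lower. The log2 change in this scaled ratio had a median of -0.08 in A to B bins and 0.41 in B to A bins, but 0.17 over all bins. Relative to all bins the medians were thus -0.25 and 0.23. A library size shifts all bins together, so it moves the calls but not these relative medians. With a single size for both classes of a library the median over all bins was -0.15. Then 156 A to B bins were called lower and 9 B to A bins higher, with 1 and 2 the other way. Over all bins 23.8% were lower and 2.0% higher, and lower calls went from 16.9% to 92.3% of all calls. With the median ratio over bins as library size, a scaling chosen after seeing the data, the calls were 48 and 37. Over all bins 6.2% were lower and 6.6% higher, and lower calls made up 48.2% of all calls. With the replicate number as a block and a library size per class the calls were 3 and 19, against 0.441% of all bins lower and 2.87% higher. With the numbers exchanged in the pre-S group, also chosen after seeing the data, the calls were 50 and 83. Over all bins 9.4% were then lower and 34.6% higher. The calls depended on the 3 h libraries: without the first of them 0 A to B and 1 B to A bin were called in the direction of the rule, and without the second 0 and 2. Dropping the first pre-S library gave medians relative to all bins of -0.29 and 0.20, and dropping the second -0.21 and 0.28.

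Single bins show the A share in each library; their log2 changes and calls are those at a library size per class, and a single size moves the changes down together (median over all bins from 0.17 to -0.15). The middle bin of the chromosome 10 run had an A share of 60% and 59.2% at 3 h, 54.0% and 58.0% at 10 h, 45.8% and 47.3% in imminent division libraries, and 45.5% and 45.3% at pre-S. Its log2 change from 3 h to pre-S was -0.50 (edgeR adjusted p = 0.00317). The Tead1 bin had 51.4% and 49.6% at 3 h, 51.4% and 52.4% at 10 h, 58.6% and 60.3% in imminent division libraries, and 57.2% and 57.1% at pre-S, with a log2 change of 0.71 (edgeR adjusted p = 3.54e-06). In both the 33 h libraries lay apart from 3 h and 10 h. The Bcl2a1b bin fell from 64.1% and 65.3% at 3 h to 47.8% and 47.7% at pre-S (log2 change -0.68, edgeR adjusted p = 0.00448). The Psma2 bin, at 61.7% and 60.7% at 3 h and 51.0% and 53.2% at pre-S, did not pass the test (log2 change -0.21, edgeR adjusted p = 0.223). In all, 14 A to B and 52 B to A bins passed both the component and the A share test in the direction of the rule. The share of all bins that passed both was not counted. These counts hold at a library size per class, where the A share test called 3.03% of all bins lower and 14.9% higher. The directions therefore cannot be compared by them.

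Coverage was compared in the same way. Interchromosomal read ends per bin, which do not depend on the compartment of the partner, were lower at pre-S than at 3 h in 75 A to B bins (29.8%) and 52 B to A bins (46.4%) and higher in 21 (8.33%) and 9 (8.04%) (edgeR, FDR of 5%), against 31.4% of all bins lower and 34.0% higher. The median log2 change was -0.05 in A to B bins, -0.09 in B to A bins and -0.01 over all bins. The share of A to B bins with lower coverage was thus near that of all bins and the share of B to A bins was above it, while higher coverage was called in fewer bins of both directions than over all bins. Of the 152 A to B bins with a lower component 96 showed no called change of coverage and 56 did, while 96 of all 252 A to B bins did. Of the 61 B to A bins with a higher component 29 showed none and 32 did, while 61 of all 112 did. The shares with a called change were thus close to those of each direction as a whole. Without the first or the second pre-S library 39 or 50 A to B bins and 24 or 31 B to A bins had a called change of coverage, of 96 and 61 with all 4 libraries. The part of coverage in the component was not tested.

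The libraries ranged from 88703088 read pairs (3 h, first library) to 218945191 (imminent division, second library), with 70.9% to 75.1% of autosomal pairs within a chromosome. The second imminent division library stood apart in its sex chromosomes, with 3.74% of read ends on X against 2.39% to 2.84% in the others and 0.0490% on Y against 0.0804% to 0.123%. Without it the rule gave 295 A to B and 139 B to A bins, which hold the 252 and 112 by construction. In a count added after seeing the data, limma called 167 of the 295 (56.6%) lower and 69 of the 139 (49.6%) higher at pre-S than at 3 h. It did not enter the fits of pre-S against 3 h, though it took part in choosing the bins and the stable A and B bins. With all libraries thinned to the shallowest, 272 A to B and 110 B to A bins met the rule, of which 211 and 91 were among those described. With a stricter filter on coverage (within 2-fold of the median, 23158 bins kept) the rule gave 269 and 112 bins, of which only 164 and 83 were among those described.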

How the data were processed

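Interaction counts of 8 in situ Hi-C libraries were analysed, with groups taken from the sample labels. Each deposited file holds raw counts of read pairs per pair of 50 kb bins, unscaled. The authors mapped the reads against mm10 through diffHic (cutadapt, bowtie2), then filtered duplicates, dangling ends and overlong fragments. The matrices name no coordinates, so bins were rebuilt from MboI fragments of GRCm38 (RefSeq), for 53357 bins in all, as many as each matrix has. No file states their order; chromosomes 1 to 19, X and Y were assumed, and all coordinates and gene names rest on that. Across the 18 assumed borders between autosomes, the 20 bins on either side shared a median of 138 read pairs over all libraries (at most 408), against 39123 at places away from borders, of which 78 of 47311 lay at or below 408. Of 48088 autosomal bins, 47332 were kept. The others had more than 10% undetermined sequence, or interchromosomal coverage over 4 times the median or under 1/4 of it. Genes were GENCODE vM21 protein-coding genes, of which 20472 started in the 23789 bins of 100 kb. Balancing, the component and its sign are as described above, computed with numpy 2.4.6 in Python 3.11.15.

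Pre-S was tested against 3 h with these 4 libraries alone: the component with limma 3.58.1 (robust eBayes), and interchromosomal counts with edgeR 4.0.16 in R 4.3.3. For the A share, counts with stable A and stable B bins were fitted with a coefficient per library and a class by group term, with a library size per class; coverage was scaled by TMM. Bins needed a count of at least 10 in every library, and for the A share in each class of every library. P-values were adjusted over all bins by the Benjamini-Hochberg method. DESeq2 1.42.0 was an alternative for the A share. The tests were checked on simulated data. In the simulation of the component at a change of 0.3, 96 of 200 changed bins were recovered with 0 false calls. At a log2 change of 0.5 it was 84 with 4 false calls for the A share and 200 with 13 for coverage. Bins were simulated independently of each other, with a common dispersion for the counts. Real bins share contacts and libraries, so these rates need not hold for the data.

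The bins and gene lists were chosen with earlier results of these data known. Bins were named as runs of 3 or more (at most 10 a direction), the 8 with the largest change between 10 h and imminent division, the 8 with the smallest p between pre-S and 3 h, and bins with a listed gene; of the single bins, those with a gene were preferred in the text. One bin that this rule names is not reported here. Overlapping genes give position only. Read pairs carry no molecular identifiers, so counts are not independent molecules. The replicate numbers were not taken as pairs, because deviations of equally numbered libraries correlated between -0.181 and 0.184. The study's list of excluded regions was not applied.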

Additional observations from a re-analysis of the deposited data

How the results depend on the processing

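The share of bins chosen moved little with bin size. At 50 kb 459 A to B (0.970%) and 247 B to A bins (0.522%) were chosen, and at 200 kb 140 (1.17%) and 55 (0.461%). The place of 0 moved it more. Quantile normalisation of the component gave 159 and 171, of which 157 and 106 were among those described. It gives every library the same number of A bins on a chromosome, which favours similar counts in both directions. Centring on the chromosome median gave 154 A to B bins, and a component of at least 0.1 left 31 and 16. Leaving out 1 library of the rule gave 295 to 331 and 126 to 140. The leading eigenvector without centring, chosen after seeing the data, gave 348 and 132, with 112 and 57 shared. The cause of these differences was not tested.

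The component calls in the direction of the rule between pre-S and 3 h stayed within 1.5 times under every alternative run but 1. At 200 kb 29 B to A bins of 55 were higher, against 18.6% of all 11940 bins tested. Opposite calls in A to B bins went from 8 to between 4 and 20, the highest with quantile normalisation. With 1 library left out, the lone library of its group was assumed to vary like the other group. The median difference, pre-S minus 3 h, then lay between -0.190 and -0.124 in A to B bins. It lay between 0.117 and 0.180 in B to A bins and between -0.000193 and 0.00907 over all bins. The replicate block gave 154 A to B bins lower and 65 B to A bins higher, against 12.6% of all bins lower and 10.6% higher.

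The A share calls did not stay within 1.5 times. For A to B bins lower, B to A bins higher and all bins called, the replicate block gave 3, 19 and 787, the block with numbers crossed 50, 83 and 10471, and leaving out 1 library 0 to 41, 1 to 76 and 89 to 11691. A fit of all 8 libraries gave 38 A to B bins and 8884 bins in all, limma 7 and 2612, and DESeq2 9 and 3095. A single library size gave 156 A to B bins lower and 9 B to A bins higher, against 23.8% of all bins lower and 2.0% higher. The median ratio, chosen after seeing the data, gave 48 and 37, against 6.2% and 6.6%. Coverage calls ranged from 39 to 108 A to B bins, 24 to 62 B to A bins and 9121 to 16621 bins in all when 1 library was left out. The cause was not tested.

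With 2 libraries a group, p-values rest on the spread between those libraries and on a spread pooled over all bins, which share contacts. Mouse line, gate and time cannot be told apart between pre-S and 3 h.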
